A study of Mus musculus with 12 samples.

Results

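The 10 genes described here encode apolipoproteins: Apoa1, Apoa2, Apoa4, Apoa5, Apob, Apoc1, Apoc3, Apoe, Apoh and Apom. They were chosen by symbol from the 57180 gene IDs of the deposited table, and each symbol matched 1 ID. The table holds 12 mouse libraries in 4 groups, and the submitters' design text calls the 3 libraries of each group biological replicates. Liver RNA of C57 mice given carbon tetrachloride (CCl4), a solvent toxic to hepatocytes, or its vehicle was sequenced in bulk from poly(A) RNA. The design text names the liver material hepatocytes, while the labels name it liver. CX3CR1+ cells of the dorsal skin came from Cx3cr1-creER:Ai9 mice given CCl4 or vehicle, and were sequenced by smart-seq, which amplifies whole cDNA from little RNA. In this strain a tamoxifen-inducible Cre under Cx3cr1 switches on a red reporter, and all 6 skin libraries share these alleles. The sources used here give no dose, time point, sex or age.

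Apolipoproteins are the protein part of lipoproteins, the particles that carry cholesterol and triglyceride in blood. Hepatocytes and, for some members, enterocytes of the gut secrete most of them. Apolipoprotein B is the scaffold of very low density lipoprotein, A-I and A-II build high density lipoprotein (HDL), and the small C proteins and A-V act on lipoprotein lipase, the enzyme that releases fatty acids at the vessel wall. Apolipoprotein E is a ligand of lipoprotein receptors and is also made by macrophages, which load it with cholesterol.

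Several of the genes are neighbours. On GRCm38, the build of the annotation at hand and not the GRCm39 named for the deposited values, Apoa1, Apoc3, Apoa4 and Apoa5 lie on chr9:46228580-46271919. Apoe (chr7:19696109-19699188) and Apoc1 (chr7:19689481-19692660) lie next to each other, while Apob, Apoa2, Apoh and Apom are on chromosomes 12, 1, 11 and 17. The stretches upstream of 4 genes are shown because their transcripts behaved differently below. Apoa5 and Apoa1 were the only members called lower in CCl4 liver against every total used. Apob changed sign with the total, as Apoc1, Apoc3 and Apom did, and Apoe was the most abundant member in both tissues. They come from RefSeq promoter windows on GRCm38.p6, are written 5′ to 3′ on the gene's strand and stop before any annotated exon. Capitals mark TATAAA, the only one of the searched motifs found in them.
Apoa5, chr9:46268383-46268607, plus strand: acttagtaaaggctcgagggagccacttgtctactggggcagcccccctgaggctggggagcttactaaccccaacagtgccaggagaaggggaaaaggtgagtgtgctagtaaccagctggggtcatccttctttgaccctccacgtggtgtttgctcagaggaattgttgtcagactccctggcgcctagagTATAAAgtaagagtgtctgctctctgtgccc
Apoa1, chr9:46228380-46228579, plus strand: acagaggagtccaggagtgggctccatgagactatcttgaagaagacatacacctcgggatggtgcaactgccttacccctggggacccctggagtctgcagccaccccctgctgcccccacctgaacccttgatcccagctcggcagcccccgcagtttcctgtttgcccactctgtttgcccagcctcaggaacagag
Apob, chr12:7977427-7977647, plus strand: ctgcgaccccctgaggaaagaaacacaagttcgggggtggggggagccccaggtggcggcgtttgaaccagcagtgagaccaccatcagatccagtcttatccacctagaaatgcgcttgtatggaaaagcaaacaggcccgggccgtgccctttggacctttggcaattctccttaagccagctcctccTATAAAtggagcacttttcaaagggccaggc
Apoe, chr7:19699189-19699438, minus strand: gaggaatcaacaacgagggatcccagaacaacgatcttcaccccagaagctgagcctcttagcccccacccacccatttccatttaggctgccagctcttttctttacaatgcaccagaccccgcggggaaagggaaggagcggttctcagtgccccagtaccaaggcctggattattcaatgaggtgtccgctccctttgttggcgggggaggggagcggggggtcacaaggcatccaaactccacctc

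Windows were at hand for 8 of the 10 genes, and Apoc1 and Apoc3 had none. Windows of the 250 bases before the RefSeq start were searched on both strands. TATAAA was found in 3 of the 8, at -60 to -55 in Apob, -56 to -51 in Apoa5 and -212 to -207 in Apoa2, counted back from the start, and in 12.4% of all 32851 windows. CCAAT was found in the window of Apoa2 alone, against 33.8% of all windows. GGGCGG, the core bound by SP1, was found in none, against 32.7% of all. The hepatocyte factor motifs CAAAGTCCA and CAAAGGTCA (HNF4A), GTTAAT (HNF1) and TTGCGCAA (C/EBP) were found in none of the 8 windows, and in 0.384%, 0.426%, 6.43% and 0.164% of all windows. The hits did not overlap. A match describes letters only, and the absence of one says nothing of a factor.

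Values are TPM, which correct for transcript length and scale each library to the same total, so they carry no read depth and depth is unknown. Mitochondrially encoded genes and their 7 near-copy pseudogenes held 25.7% to 28.4% of the TPM of vehicle livers and 68.1% to 82.1% of CCl4 livers, with the lowest CCl4 share in replicate 3. All other genes therefore share a smaller total after CCl4, and liver changes are given both as deposited and with these genes left out of the total. In skin, both libraries numbered 1 listed more genes above 0 (28870 and 28357) than the other 4 (21328 to 23494). CCl4 replicate 3 stood apart in several myeloid genes, with 45.0 TPM of the antigen presentation gene Cd74 against 8268 to 31489 TPM in the other 5 libraries. Not all were low there. Spp1 and the neutrophil genes S100a8 and S100a9 had their highest skin values in that library, at 1094, 291 and 288 TPM. The other listed neutrophil markers, Csf3r, Retnlg and Ly6g, were at 0.03, 0.08 and 0 TPM there. Cx3cr1 itself was low in all skin libraries, at 0 to 5.28 TPM, and was listed at 0 in CCl4 replicate 2. Markers of other cells were present in all of them. T cell markers summed to 589 to 3754 TPM with vehicle and 606 to 2358 TPM with CCl4. Keratinocyte markers summed to 1087 to 2763 TPM and 380 to 3198 TPM. Those of stellate cells and fibroblasts summed to 1442 to 6365 TPM and 337 to 3901 TPM.

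In vehicle liver the 10 genes together held 6.39% ± 0.215 (SD, n = 3) of all TPM. Apoe led with 34.7% ± 0.0611 of their sum, and Apoa2 followed with 25.5% ± 0.175. Mean TPM then fell in the order Apoc1, Apoa1, Apoc3, Apoh, Apoa5, Apob, Apom and Apoa4. Replicates of neighbours in that order overlapped only for Apoc1 and Apoa1. In CCl4 liver the order was Apoe, Apoc1, Apoa2, Apoa1, Apoc3, Apoh, Apob, Apoa5, Apom and Apoa4. Neighbours overlapped in 6 of 9 steps there, and did not between Apoa2 and Apoa1, Apoc3 and Apoh, and Apob and Apoa5.

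After CCl4, 9 of the 10 transcripts were lower in liver TPM as deposited, by 0.85 (Apoc1) to 2.85 (Apoa5) on the log2(TPM + 1) scale, and Apoa4 was not called. The calls are those of limma at a Benjamini-Hochberg adjusted p under 0.05 over all genes tested. Of all 10385 genes tested 61.4% were called, 51.1% lower and 10.3% higher. The 3 CCl4 values lay apart from the 3 vehicle values for the same 9 members, against 70.2% of genes tested, or 58.8% with all CCl4 libraries lower. The median change of the members was -1.75 and that of all genes -0.59. Relative to the latter, 9 members were below it, with a median of -1.16. In bulk samples fewer cells of a type and less RNA per cell cannot be told apart.

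Among HDL proteins, Apoa1 (ENSMUSG00000032083), the main protein of HDL and activator of the enzyme that esterifies its cholesterol, stood at 8402, 9076 and 9209 TPM in vehicle livers. In CCl4 livers it stood at 1183, 1497 and 2662 TPM. The groups were far apart, and CCl4 replicate 3 was the highest of its group. The mean fell from 8896 ± 433 to 1780.4 ± 779 TPM (SD, n = 3 per group), a log2 change of -2.41 ± 0.31 (SE; limma adjusted p = 0.000174). Apoa2 (ENSMUSG00000005681), the second HDL protein, was at 15817, 16275 and 16714 TPM with vehicle, against 2808, 3227 and 6442 TPM with CCl4. It fell by 2.07 ± 0.30 on the log2 scale (limma adjusted p = 0.000337), again with CCl4 replicate 3 nearest to the vehicle values.

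Apom (ENSMUSG00000024391), the HDL protein that carries sphingosine 1-phosphate, was much less abundant. Its vehicle values were 258, 297 and 292 TPM and its CCl4 values 78.2, 107 and 216 TPM. It fell by 1.20 ± 0.38 (limma adjusted p = 0.0178). The gap between the groups was narrow, and Apom was not called lower in 11 of 19 other settings, in 9 of which it had no call and in 2 of which it was called higher. Its sign turned in 4.

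Among the regulators of lipoprotein lipase, Apoa5 (ENSMUSG00000032079), an activator whose loss raises plasma triglyceride, changed most of all members. It was at 906, 1056 and 1039 TPM with vehicle, against 114, 87.6 and 258 TPM with CCl4. The mean CCl4 level was 15.3% of the vehicle mean, and the log2 change was -2.85 ± 0.39 (limma adjusted p = 0.000254). The call held in all 19 other settings run, over a range of -3.30 to -1.0. Exons of the antisense gene Gm47544, which reached 37.1 TPM in liver, overlap those of Apoa5 by 524 bases. The library kit marks strand per the labels' protocols, but the sources used here do not say whether counting used it.

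Apoc3 (ENSMUSG00000032081), an inhibitor of triglyceride clearance transcribed towards its neighbour Apoa1, was at 3066, 3477 and 3478 TPM with vehicle. With CCl4 it was at 725, 1053 and 1841 TPM. It fell by 1.57 ± 0.34 (limma adjusted p = 0.00255). Apoc1 (ENSMUSG00000040564), which inhibits lipoprotein lipase and receptor uptake and is made by hepatocytes and macrophages, had the smallest fall. Its values were 8995, 8874 and 9405 TPM with vehicle and 3424, 5419 and 6901 TPM with CCl4, a log2 change of -0.85 ± 0.28 (limma adjusted p = 0.0198). The groups did not overlap, yet Apoc1 was not called lower in 10 of 19 other settings, in 8 of which it had no call and in 2 of which it was called higher. Its sign turned in 4.

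Apoa4 (ENSMUSG00000032080), a lipid-binding protein of gut and liver that responds to feeding, was the only member without a call. It was at 68.0, 73.3 and 73.9 TPM with vehicle, against 61.0, 76.2 and 146 TPM with CCl4. The 6 values overlapped, and the log2 change of 0.29 ± 0.35 (limma adjusted p = 0.483) rested on CCl4 replicate 3, since it was -0.072 without that library.

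Apob (ENSMUSG00000020609), the scaffold of very low density lipoprotein, was the most even member among vehicle livers, at 881, 884 and 876 TPM. It was at 284, 359 and 568 TPM in the CCl4 livers and fell by 1.18 ± 0.32 (limma adjusted p = 0.00867). Apoe (ENSMUSG00000002985) was at 21415, 22220.5 and 22876 TPM with vehicle, against 4624, 4814 and 9025 TPM with CCl4. No CCl4 value came near the vehicle values, and the log2 change was -1.92 ± 0.27 (limma adjusted p = 0.000279). Apoh (ENSMUSG00000000049), beta-2-glycoprotein I, which binds phospholipids and is the main antigen of antiphospholipid antibodies, was at 1849, 1964 and 1974 TPM with vehicle. It was at 328, 427 and 697 TPM with CCl4 and fell by 2.06 ± 0.33 (limma adjusted p = 0.000505).

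**Figure D1:**
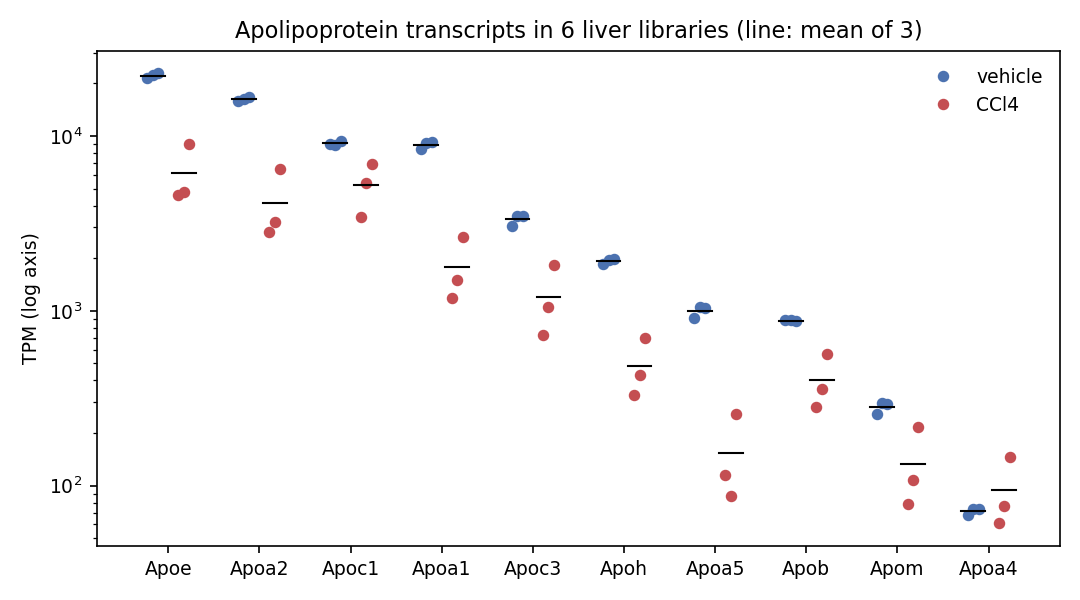
TPM of the 10 apolipoprotein genes in each liver library on a log axis, with vehicle in blue, CCl4 in red and a line at the mean of the 3 libraries of a group. For 9 genes all CCl4 points lie below all vehicle points, for Apoa4 they overlap, and the CCl4 libraries spread more widely than the vehicle libraries.

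Leaving mitochondrially encoded genes and their near copies out of the total changed what the members showed. Their summed share of the remaining TPM was 8.72% ± 0.137 with vehicle and 8.42% ± 0.727 with CCl4 (SD, n = 3 per group), where their share of the whole had been 6.39% ± 0.215 and 1.98% ± 0.793. On this total 3 members were called lower, Apoa5, Apoa1 and Apoh, and 4 higher, Apoa4, Apoc1, Apob and Apom, by limma. Of all genes tested 71.0% were called, 4.2% lower and 66.8% higher. The median of all genes moved from -0.59 to 0.85, and 8 of the 10 members were below it.

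Apoa4 rose on this total from 95.0 to 99.4 TPM in the vehicle livers to 341 to 457 TPM in the CCl4 livers, a log2 change of 1.99 ± 0.14 (limma adjusted p = 0.000237). Apoc1 rose from 11979 to 12651 TPM to a range of 19124 to 27433 TPM, by 0.86 ± 0.16 (limma adjusted p = 0.00275). Apob and Apom rose by 0.52 ± 0.12 and 0.50 ± 0.18 (limma adjusted p = 0.00576 and 0.0360). These 3 smaller rises were at or below the median of all genes, and only Apoa4 was clearly above it, by 1.14.

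Apoa5 remained lower on this total, at 443 to 809.6 TPM with CCl4 against 1266 to 1425 TPM with vehicle, a log2 change of -1.15 ± 0.22 (limma adjusted p = 0.00303). Apoa1 was also lower, at 6607 to 8346 against 11732 to 12388 TPM, by -0.70 ± 0.13 (limma adjusted p = 0.00299). Apoh changed by -0.36 ± 0.12 (limma adjusted p = 0.0333). Apoa2 and Apoe changed by -0.36 ± 0.14 and -0.21 ± 0.12 without a call (limma adjusted p = 0.0509 and 0.156), and Apoc3 by 0.14 ± 0.16 (limma adjusted p = 0.470). Relative to the median of all genes on this total, Apoe was at -1.06, Apoa2 at -1.21 and Apoh at -1.20.

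The members were also set against 11 other secreted hepatocyte proteins, among them albumin, transthyretin and fibrinogen, which all fell in TPM (11 of 11 called lower by limma, against 51.1% of all genes, median -1.75). On the total without mitochondrial transcripts 1 of them was called lower and none higher, against 4.2% and 66.8% of all genes. Their median was -0.04 there, against 0.85 for all genes. Of these proteins Serpinc1, antithrombin, and Fgg, a fibrinogen chain, were at -2.30 and -2.10 as deposited. The ratio of each member to their geometric mean does not depend on the total. It was 2.15 log2 units higher with CCl4 for Apoa4, 1.01 for Apoc1, 0.67 for Apob and 0.65 for Apom, and lower by -1.01 for Apoa5, -0.55 for Apoa1 and -0.21 for Apoa2. For these 7 members the 3 CCl4 ratios did not overlap the 3 vehicle ratios (two-sided exact permutation p = 0.1 for each, the smallest that 3 against 3 allows, 10 ratios compared). The share of all genes without overlap in this ratio was not computed, so the count of 7 has no background beside it. For Apoc3, Apoe and Apoh the ratios overlapped, with differences of 0.28, -0.06 and -0.21 (exact permutation p = 0.3, 0.6 and 0.4). With TPM scaled to these proteins, limma called 2 members lower, Apoa5 and Apoa1, and the same 4 higher, against 3.26% and 68.4% of all genes (71.7% called).

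**Figure D2:**
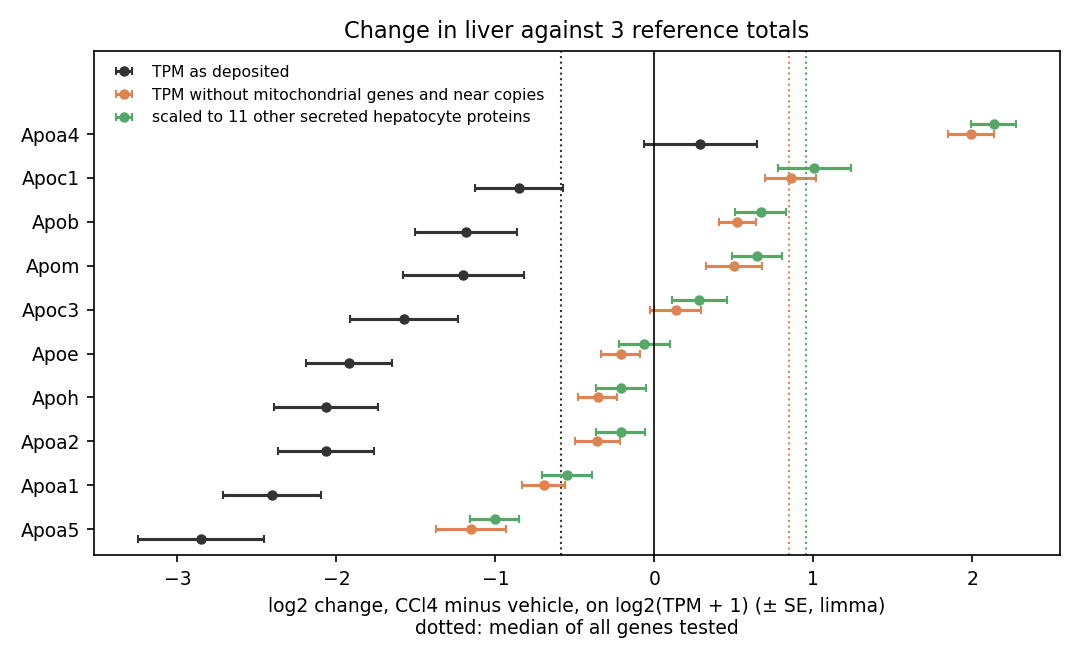
Log2 change (CCl4 minus vehicle, ± SE, limma) of each member in liver for TPM as deposited, TPM without mitochondrial genes and near copies, and TPM scaled to 11 other secreted hepatocyte proteins. Dotted lines are the medians of all genes under each (the first at -0.59, the second at 0.85). Each total scales all genes of a library by 1 factor. The shared order of the members, with Apoa5 lowest and Apoa4 highest, is therefore set in advance and is no separate result.

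Ratios between members within a library restate this unequal change without any reference to other genes. Per Apoa1 transcript, Apoa4 stood at 0.00807 ± 3.88e-05 with vehicle and 0.0524 ± 0.00210 with CCl4 (SD, n = 3 per group). Apoc3 per Apoa1 stood at 0.375 ± 0.00933 and 0.669 ± 0.0494, and Apob per Apoa1 at 0.0991 ± 0.00507 and 0.231 ± 0.0153. Apoa4, Apoc3 and Apoa1 are neighbours in 1 cluster on chromosome 9, and the gaps between groups were many times the SD within them. Apoa5 of the same cluster stood at 0.112 ± 0.00425 and 0.0841 ± 0.0222 per Apoa1, with 1 CCl4 library, replicate 2, at 0.0585 and the others at 0.0968 and 0.0970. For the neighbours on chromosome 7, Apoc1 per Apoe stood at 0.410 ± 0.0104 with vehicle and 0.877 ± 0.216 with CCl4, where replicate 2 reached 1.13.

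**Figure D3:**
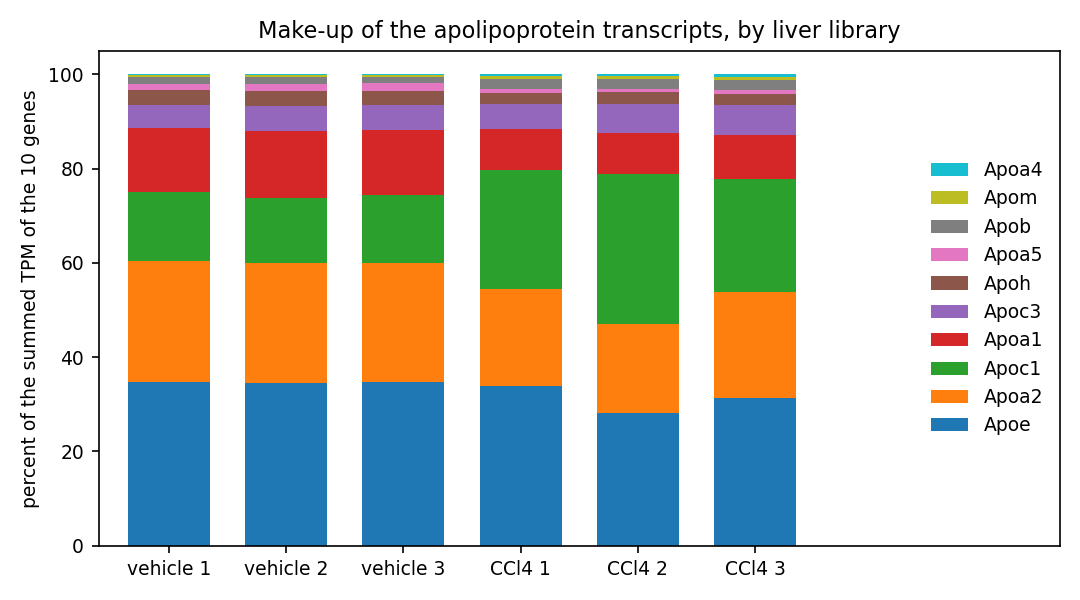
Percent of the summed TPM of the 10 genes taken by each, for every liver library. Apoc1 took 14.2% ± 0.385 with vehicle and 27.0% ± 4.19 with CCl4 (SD, n = 3 per group), Apoa1 13.9% ± 0.260 and 8.90% ± 0.310, and Apoe 34.7% ± 0.0611 and 31.2% ± 2.87.

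Markers of several cell types moved with these changes. All 8 hepatocyte markers were called lower as deposited, against 51.1% of all genes, with a summed level of 67076 to 74850.2 TPM in vehicle livers and 13768 to 31735 TPM in CCl4 livers. On the total without mitochondrial transcripts, and scaled to secreted proteins, 4 of the 8 were called lower and none higher. Of all genes 4.2% and 3.26% were lower on these totals, and 66.8% and 68.4% higher. Alb, Ttr and Ahsg are also among the 11 scaling proteins, so their change under that scaling is partly set by it. All 12 markers of Kupffer cells and tissue macrophages, cells that also make Apoe and Apoc1, were called higher, from 33.4 to 78.9 TPM in sum to 146 to 390.4 TPM. All 5 measured markers of monocyte-derived macrophages of 8 listed, all 6 of endothelial cells and all 7 measured of 9 of stellate cells and fibroblasts were called higher too, against 10.3% of all genes. All of these 4 lists were also called higher on both other totals, where 66.8% and 68.4% of all genes were. Their part in the values of the members was not tested. Of the 4 enterocyte markers, Fabp2 fell from 53.1 to 61.9 TPM to 6.62 to 18.8 TPM in liver, and Vil1, Sis and Cdx2 were below 1 TPM in every liver library.

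Of the other genes that act on lipoproteins, those of hepatocyte secretion moved down in TPM with the members. Among 14 other apolipoproteins 11 were measured, and limma called 10 lower and none higher, with a median of -1.79 (51.1% of all genes were lower). Saa4, a constitutive serum amyloid A of HDL, changed by -2.93 ± 0.36, Apol7a by -2.11 ± 0.34 and Apoc4, a neighbour of Apoe, by -1.97 ± 0.36 (limma adjusted p = 0.000129, 0.000547 and 0.00103). Apoc2, the activator of lipoprotein lipase, changed by -0.77 ± 0.37 and was not called (limma adjusted p = 0.0862). Of 19 genes of lipoprotein assembly and secretion 16 were lower, with a median of -1.16. They included Cideb, which helps to lipidate nascent particles, Dgat2, which makes triglyceride, and Mia2, an export factor of the endoplasmic reticulum, at -2.36, -2.22 and -2.01. On the total without mitochondrial transcripts, where 4.2% of all genes were lower and 66.8% higher, 2 of the other apolipoproteins were lower and 1 higher, and of the assembly genes 2 were lower and 8 higher.

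Genes that remodel HDL were lower in TPM as well, with 10 of 11 measured called lower, against 51.1% of all genes, and a median of -1.65. With mitochondrial transcripts out of the total 4 were lower and 3 higher, against 4.2% and 66.8% of all genes, with a median of -0.07. Lipc, hepatic lipase, changed by -2.57 ± 0.33, Abcg8, a subunit of the biliary sterol transporter, by -2.37 ± 0.31 and Pon1, an esterase carried on HDL, by -2.36 ± 0.35 (limma adjusted p = 0.000183, 0.000193 and 0.000348). Of 21 measured transcription factors that act on apolipoprotein genes, 17 were lower, against 51.1% of all genes, and none higher, with a median of -1.18. Nr0b2, a corepressor induced by bile acids, changed by -2.49, Rxra, the partner of many nuclear receptors, by -1.80, Nr1d1, a clock repressor, by -1.64 and Hnf4a, a master regulator of hepatocyte genes, by -1.98 ± 0.40 (limma adjusted p = 0.00163). Nr1h3, the oxysterol receptor that acts on Apoe, Apoc1 and Apoa4, fell by 1.14 ± 0.28. Without mitochondrial genes and copies 1 of the 21 was lower and 6 higher, against 4.2% and 66.8% of all genes. The median of the 21 was 0.11 there, against 0.85 for all genes, and Nr1h3 was at 0.49.

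Lipoprotein receptors and the lipase axis were mixed. Of 10 measured receptor genes 3 were called higher and 5 lower, the latter near the 51.1% of all genes. On the total without mitochondrial transcripts 7 were higher and none lower, against 66.8% and 4.2% of all genes. The scavenger receptors Msr1 and Cd36 rose by 2.64 ± 0.38 and 2.46 ± 0.36 (limma adjusted p = 0.000309 and 0.000343). Of 8 genes of the lipase axis 2 were higher and 3 lower, against 10.3% and 51.1% of all genes. Lpl and its endothelial anchor Gpihbp1 rose by 2.31 ± 0.27 and 3.01 ± 0.42, and the lipase inhibitor Angptl4 fell by 2.83 ± 0.35. With mitochondrial transcripts out of the total 5 of the 8 were higher and 1 lower, with a median of 1.08 against 0.85 for all genes. Of 16 measured genes of macrophage cholesterol handling 6 were higher and 4 lower, against the same 10.3% and 51.1%, with Fabp4, Trem2 and Lpl up by 3.40, 2.81 and 2.31. All 16 were higher on the total without mitochondrial transcripts, where 66.8% of all genes were. Of the 4 genes of Apob mRNA editing only Rbm47 was called, at -1.11 ± 0.27 (limma adjusted p = 0.00465), and Apobec1, the deaminase itself, was at 0.48 ± 0.24 (limma adjusted p = 0.0945).

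In the skin cells Apoe was by far the most abundant member. It made up 79.2% to 97.0% of their summed TPM in the 6 libraries, and Apoc1 made up 2.73% to 20.7%. Of the other 8, Apoa2 was at 1 TPM or more in 5 of the 6 libraries, and each of the other 7 reached 1 TPM in at most 2. Replicates of neighbours in the order of means overlapped for all pairs in CCl4 skin, and for all except Apoe with Apoc1 and Apoc1 with Apoa1 in vehicle skin. Apoe, Apoc1 and Apoa2 passed the filter of 1 TPM in 3 of the 6 libraries, and 7 members did not. None of the 3 was called between CCl4 and vehicle, and the share of the 13767 genes tested that limma called was 0.0% (0 genes, with 288 at an unadjusted p under 0.05). For all 10 members the CCl4 and vehicle libraries overlapped, against 5.28% of genes tested without overlap, 2.72% with CCl4 lower.

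Apoe stood at 1330.5, 3379.7 and 7962 TPM in vehicle skin, against 2659, 7371 and 229 TPM in CCl4 skin. The highest values of both groups were alike and CCl4 replicate 3 was far below the other 5. The log2 change was -1.0 ± 1.17 (limma adjusted p = 1.00), and 0.43 without CCl4 replicate 3. Apoc1 stood at 347, 98.2 and 247 TPM with vehicle, against 345, 591 and 19.4 TPM with CCl4, again lowest in CCl4 replicate 3. Its change was -0.34 ± 1.16 (limma adjusted p = 1.00), and 1.15 without that library. Without both libraries numbered 1, or with that number as a batch term, no member was called.

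Macrophage genes did not vary alike across the skin libraries. C1qb, a complement subunit made by macrophages, was at 421, 1845 and 4462 TPM with vehicle, against 472, 1083 and 5.86 TPM with CCl4. The ranking of C1qb and that of Apoe agreed at the top, in vehicle replicate 3, and in the lowest 3 libraries, CCl4 replicate 1, vehicle replicate 1 and CCl4 replicate 3. Csf1r, the receptor that macrophages need to survive, was at 76.7, 483 and 44.5 TPM with vehicle, against 59.6, 36.9 and 2.12 TPM with CCl4. It, Adgre1 and Mrc1 were highest in vehicle replicate 2, and Timd4 in vehicle replicate 1, not in the libraries with the most Apoe, vehicle replicate 3 and CCl4 replicate 2. All 5 were lowest in CCl4 replicate 3, as Apoe was. Of 8 markers of monocyte-derived macrophages, Lyz2, Ly6c2, Ccr2 and Itgam were also lowest there, while Spp1, Gpnmb, Trem2 and Lgals3 were not. Summed over 12 macrophage markers the level was 1832 to 9539 TPM with vehicle and 99.5 to 2803 TPM with CCl4. Clec4f, the defining Kupffer cell gene, was at 0 in 5 skin libraries and at 0.11 TPM in CCl4 replicate 1. The summed level of 5 Langerhans cell markers was 42513 to 47344 TPM with vehicle and 180.5 to 29204 TPM with CCl4. Nearly all of it was Cd74 and H2-Ab1, which other antigen-presenting cells share, except in CCl4 replicate 3. There Cd74 and H2-Ab1 were at 45.0 and 20.7 TPM, below Epcam. Cd207, the defining gene, was at 289, 114 and 13.6 TPM with vehicle, against 74.8, 38.2 and 1.08 TPM with CCl4, while Epcam was highest, at 113 TPM, in CCl4 replicate 3. The part of these cells, or of T cells, keratinocytes and fibroblasts, in the values of Apoe was not tested.

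**Figure D4:**
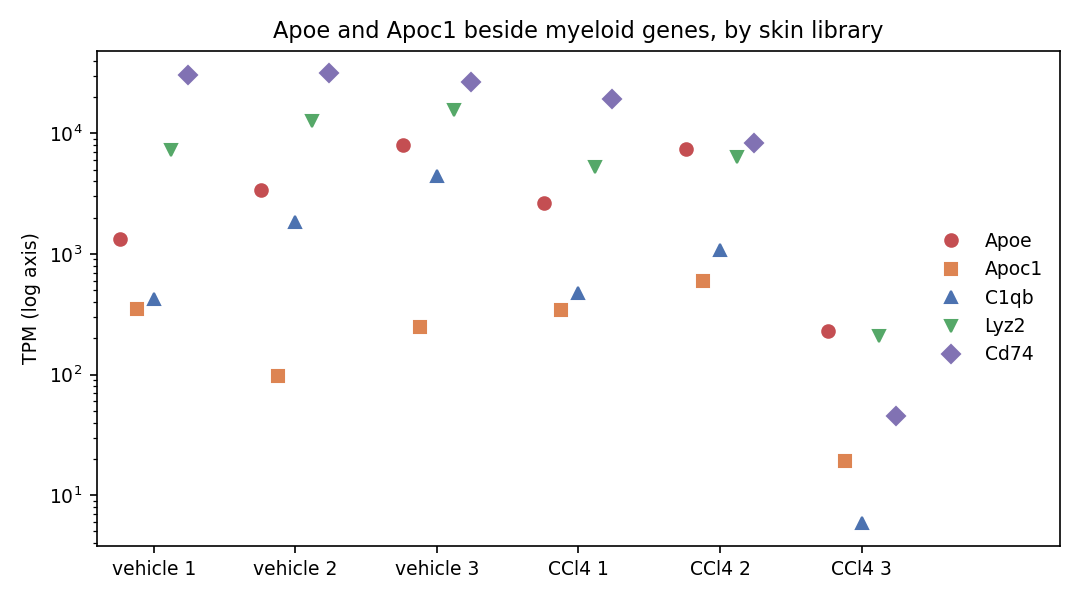
TPM of Apoe and Apoc1 beside C1qb, Lyz2 (lysozyme of myeloid cells) and Cd74 in each skin library, on a log axis. In CCl4 replicate 3 all 5 genes are at their lowest, with Apoe at 229 TPM, while the other 5 libraries range from 1330.5 to 7962 TPM for Apoe. Not every myeloid gene is low there: Spp1, which is not drawn, is at 1094 TPM, its highest in skin.

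The members other than Apoe and Apoc1 all had their highest skin values in vehicle replicate 2 or CCl4 replicate 2. Apoa1 was at 0.10, 92.5 and 0.07 TPM with vehicle, against 0.52, 6.83 and 0 TPM with CCl4. The value in vehicle replicate 2 stands alone, and that library also held the highest skin values of Apoa4 (3.96 TPM) and Apob (5.09 TPM). It alone held markers of enterocytes, the cells that make these 3 apolipoproteins in the gut: Fabp2 was at 148 TPM, Sis at 8.90, Vil1 at 7.17 and Cdx2 at 0.56. In the other 5 skin libraries the summed level of these 4 markers was 0.14 to 0.56 TPM. Its 8 hepatocyte markers summed to 20.0 TPM, with Fabp1 at 7.06 TPM, Alb at 5.28 TPM and Tat at 0. Of these markers 7 were at 1 TPM or more, the most of any skin library. The source of Apoa1, Apoa4 and Apob in this library was not tested.

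Apoa2 was at 1.26, 11.2 and 0.22 TPM in vehicle skin, against 1.26, 110.5 and 4.5 TPM in CCl4 skin, with a log2 change of 1.79 ± 1.42 (limma adjusted p = 1.00). The high value came from CCl4 replicate 2, without which the change was 0.13. Apoc3 was at 21.6 TPM in that library, at 3.85 TPM in vehicle replicate 2 and at or below 0.47 TPM in the other 4. The same library had the highest skin levels of the capillary gene Gpihbp1 (193 TPM), of the fatty acid binding protein Fabp4 (3926 TPM), of the fat cell hormone Adipoq (93.4 TPM) and of Car3, a gene abundant in fat cells (744 TPM against 0.47 to 79.9 TPM in the others). The sebocyte genes Krt79 and Awat2 were not highest there, at 44.9 and 1.51 TPM against 192 and 38.4 TPM in vehicle replicate 1. Its 8 hepatocyte markers also had the highest sum of all skin libraries, 106 TPM against 1.60 to 23.4 TPM in the others. Of that sum Cyp2e1 gave 90.8 TPM, Alb 4.51 TPM and Ttr 4.21 TPM, and Tat was at 0. The part of these cells in the values of Apoa2 and Apoc3 was not tested.

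Apoa5 was listed at 0 in 5 skin libraries and at 0.61 TPM in CCl4 replicate 2. Apom reached 1.23 TPM and Apoh 3.15 TPM in that library, and both were at 0 to 1.32 TPM elsewhere in skin. None of these levels separated the groups.

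**Figure D5:**
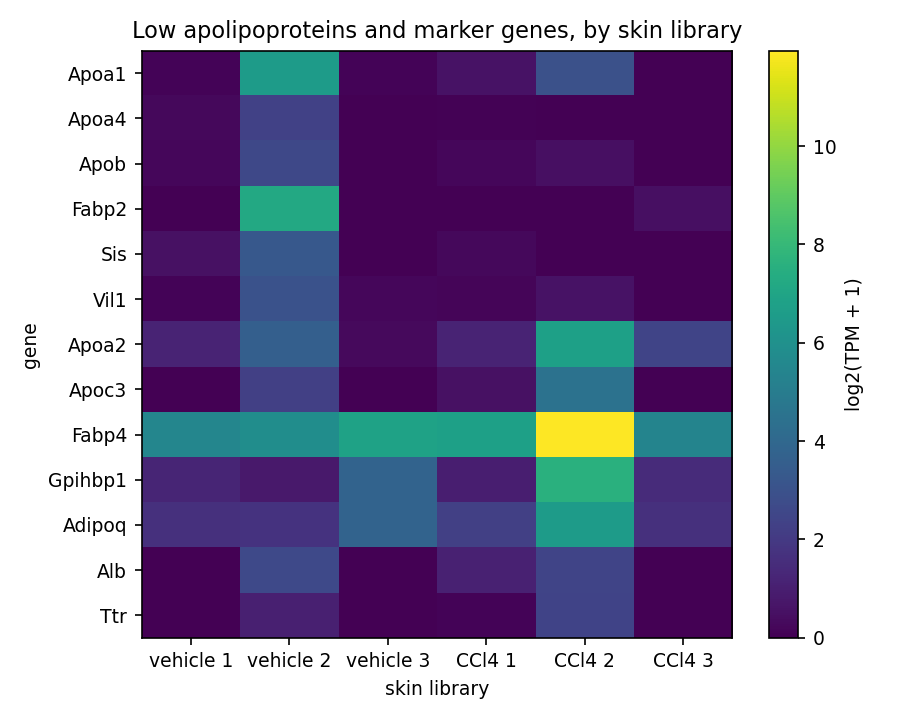
Heat map of log2(TPM + 1) in the 6 skin libraries for Apoa1, Apoa4 and Apob with the enterocyte genes Fabp2, Sis and Vil1, for Apoa2 and Apoc3 with Fabp4, Gpihbp1 and Adipoq, and for the hepatocyte genes Alb and Ttr. The first set is bright in vehicle replicate 2, where Apoa1 is at 92.5 TPM, and the second in CCl4 replicate 2, where Apoa2 is at 110.5 TPM.

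Of the other lipoprotein genes in skin none was called by limma in any list. The lowest unadjusted p belonged to Pltp, a lipid transfer protein also made by macrophages, at 207, 686 and 523 TPM with vehicle and 287, 206 and 7.33 TPM with CCl4. Angptl4 was at 76.9, 18.8 and 10 TPM with vehicle, against 70.0, 326 and 35.5 TPM with CCl4. Lpl was at 53.3, 108 and 43.2 TPM with vehicle, against 28.9, 46.0 and 20.9 TPM with CCl4, and Msr1 at 20.0, 83.0 and 42.6 against 24.1, 36.1 and 1.98 TPM. The groups of Pltp, Angptl4, Lpl and Msr1 overlapped. Sec24a, Pon3, Sorl1, Creb3l3 and Rbp4 were at -0.67, -1.08, -1.41, -0.86 and -0.96 on the log2 scale, none of them called. Apoc2 and Apoc4, the neighbours of Apoe, were at most 19.3 and 30.2 TPM in skin, both in CCl4 replicate 2.

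Whether CCl4 acted differently in liver and skin could be tested for Apoe, Apoc1 and Apoa2, the members measured in both. The differences, liver minus skin, were -0.92 ± 1.38, -0.51 ± 1.33 and -3.86 ± 1.63 (limma adjusted p = 0.753, 0.871 and 0.213), so 0 of 3 were called, against 0.216% of 9255 genes (0.0648% lower and 0.151% higher). With the replicate number as a block, 345 genes were called and Apoa2 was among them (limma adjusted p = 0.0336). Tissue, strain and library method cannot be told apart in this comparison.

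Over all 12 libraries the genes whose profile lay closest to that of Apoe were Sult1a1, a sulfotransferase, Tcea3, a transcription elongation factor, Gamt, the last enzyme of creatine synthesis, Ang, angiogenin, and Selenbp1, a selenium-binding protein. The measure is the mean absolute difference of centred log2(TPM + 1) over the 12 libraries. It was 0.41, 0.48, 0.48, 0.54 and 0.54, the smallest of 4202 candidate genes. Sult1a1 was at 178 to 221 TPM in vehicle liver, 36.0 to 98.9 TPM in CCl4 liver and 29.8 to 53.6 TPM in 5 skin libraries. Like Apoe it was lowest in skin CCl4 replicate 3, at 0.57 TPM.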

How the data were processed

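The authors deposited 1 table of TPM for 12 mouse libraries. The submitters' processing notes name RSEM, StringTie, HISAT2 and fastp, and the build GRCm39, without versions or the role of each tool. All columns matched a label. Of the gene IDs, 51884 had a symbol. The members and gene lists were chosen with earlier results of these data known.

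With limma 3.58.1 in R 4.3.3, log2(TPM + 1) was fitted (eBayes with trend, two-sided), separately in liver and skin because strain and method differ. Genes with at least 1 TPM in 3 of 6 libraries were tested, with calls at an adjusted p (Benjamini-Hochberg) under 0.05. Changes on this scale understate those of low genes. The tissues were compared in 1 model of 4 group means over 12 libraries. Near-copy pseudogenes were those with at least 50% of their 31-base words in the mitochondrial chromosome.

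All 10 members are named. Of each of the 9 other function lists, up to 3 called genes with the lowest adjusted p in liver and up to 2 with the lowest p in skin could be named, with Hnf4a, Nr1h3, Alb and Apobec1 always, and the 5 genes closest to Apoe among those with a mean of at least 5 TPM in both tissues. Marker genes, Cx3cr1, Apoc4 in skin, Gpihbp1 and Fabp4 in skin, and overlapping antisense genes are named beyond this rule, after their values were seen. Not every gene that the rule allows is reported here. In simulated data with the liver spread, limma recovered 33.0% of changes of 1 log2 unit and 87.1% of changes of 2, with 7 false calls among 9988 genes. With the skin spread it recovered 0% of both. Alternatives were other pseudocounts, filters and scalings, robust fits, a minimum change, a replicate block, 1 fit over all libraries and leaving out each library. Alternatives added after seeing the data were scaling to the secreted hepatocyte proteins, leaving out both skin libraries numbered 1, and that number as a batch term. Tables of promoter windows and names came from RefSeq (GRCm38.p6) and GENCODE on GRCm38, so no sequence was read by coordinates of the deposited build.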

Additional observations from a re-analysis of the deposited data

How the results depend on the processing

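TPM hold no depth, so counting error is unknown, and with 3 libraries per group a low number of calls does not show that groups were alike. The liver result turned on the reference total. Members called lower numbered 9 as deposited, 4 under quantile normalization, on the total without mitochondrial and top genes, and with a minimum change of 1. They numbered 3 without mitochondrial genes and copies, and 2 when scaled to secreted proteins and in 1 fit over 12 libraries. Members called higher were 1, 2, 1, 4 and 4 under median-ratio scaling, quantile normalization, the total without mitochondrial and top genes, that lacking mitochondrial genes and copies, and scaling to secreted proteins. Of all genes, 1073 were called higher and 5304 lower as deposited, 1841 and 2720 under median-ratio scaling, 1826 and 2507 under quantile normalization, 5135 and 824 without mitochondrial and top genes, and 6924 and 435 with mitochondrial genes and copies removed. They were 7105 and 339 scaled to secreted proteins, and 2007 and 4527 without a filter. The total of 6377 became 4084 at a filter of 5 TPM (fewer genes tested), 700 with a minimum change of 1 and 1736 in 1 fit over 12 libraries. Leaving out 1 library gave 4454 to 7053 calls, with 7 to 9 members lower.

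Signs in liver turned as follows. Under quantile normalization Apob, Apoc1, Apoc3 and Apom were at 0.48, 0.18, 0.16 and 0.17. Without mitochondrial and top genes, which took Apoe out of the test, Apob, Apoc1, Apom, Nr1h3 and Rbm47 were at 0.18, 0.52, 0.16, 0.16 and 0.030. Without mitochondrial genes and copies Apob, Apoc1, Apoc3, Apom, Nr1h3 and Rbm47 were at 0.52, 0.86, 0.14, 0.50, 0.49 and 0.34. Scaled to secreted proteins they were at 0.67, 1.01, 0.28, 0.65, 0.63 and 0.47, and Alb at 0.11. Against the median of the secreted proteins Apoe was at 0.062. Beyond what the totals fix, the cause was not tested. Leaving out 1 library moved Apoa4 in liver over -0.072 to 0.55.

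In skin the count of 0 became 1 in 1 fit over 12 libraries. Leaving out 1 skin library moved Apoc1 over -1.28 to 1.15, Apoe over -2.08 to 0.43, Clu over -0.37 to 2.11 and Trf over -1.85 to 0.16. The difference between tissues had 20 calls as fitted, 176 with a pseudocount of 0.1, 66 without a filter, 11 at a filter of 5 TPM, 206 under median-ratio scaling and 150 under quantile normalization. It had 486 without mitochondrial and top genes, 548 with mitochondrial genes and copies removed, and 2 to 424 when 1 library was left out. There Apoc1 was at 0.33 under quantile normalization, 1.01 without mitochondrial and top genes, and 1.21 with mitochondrial genes and copies removed, where Apoe was at 0.80. Without both skin libraries numbered 1 Apoe was at 0.076. Leaving out 1 library moved Apoc1 over -2.0 to 0.43 and Apoe over -2.35 to 0.16.

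The replicate numbers gave no sign of pairing in liver. In skin the check could not decide, since 3 deviations from a group mean are not independent. Deviations of libraries with the same replicate number correlated at -0.04, 0.08 and 0.07 in liver and 0.59, 0.09 and 0.35 in skin. Those with unlike numbers correlated at -0.11 to 0.08 in liver and -0.51 to 0.16 in skin. Not every library correlated best with its own replicate number. The library numbers in the labels differ in part from the replicate numbers. Skin vehicle replicate 2 and CCl4 replicate 3, both with library number 4, correlated at -0.18. The replicate block follows the replicate numbers and not the library numbers. It called 1146 genes higher and 5347 lower in liver with the same 9 members, 0 in skin, and 345 for the difference between tissues, with 1 member, Apoa2, lower.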

Other observations

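Apolipoproteins of inflammation and of other cells were listed with the 10 genes but belong to no lead comparison. The acute phase HDL proteins Saa1 and Saa2, close paralogs that can share reads, were lower in CCl4 liver TPM. Saa1 stood at 339, 344 and 356 TPM with vehicle, against 144, 31.3 and 156 TPM with CCl4, a log2 change of -1.94 ± 0.52 (limma adjusted p = 0.00791). Saa2 changed by -1.59 ± 0.54 (limma adjusted p = 0.0237). CCl4 replicate 2 held the lowest value of both. On the total without mitochondrial transcripts Saa1 was at -0.25 ± 0.53 and Saa2 at 0.083 ± 0.586, neither called (limma adjusted p = 0.683 and 0.904).

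Apoc2 was also set apart from Apoe on chromosome 7. It stood at 224, 246 and 255 TPM with vehicle, against 88.7, 139 and 228 TPM with CCl4, and rose by 0.93 ± 0.17 on the total without mitochondrial transcripts (limma adjusted p = 0.00252). Its neighbours Apoe and Apoc4 were at -0.21 ± 0.12 and -0.26 ± 0.15 there, without a call. The median of all genes was 0.85 on that total, with 66.8% of them called higher, so Apoc2 lay near that median. Apod, a lipocalin known from skin and fat, was listed at 0 in all 6 liver libraries. In skin it was the second most abundant apolipoprotein gene of vehicle replicate 2, at 379 TPM, and reached 917 TPM in CCl4 replicate 2. These genes were picked out after their values were seen.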
